A study of Hydra vulgaris with 2 samples.

Results

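Extracellular vesicles (EVs) released by *Hydra vulgaris*, a freshwater cnidarian polyp, carried 214 non-coding RNAs that were backed by at least 3 estimated counts. They were chosen among 2681 targets listed as non-coding RNA, out of 25314 targets in all, as those that reached 0.4 TPM on no fewer than 3 counts of that library, in either or both of the 2 libraries sequenced. A target is a transcript sequence to which reads were assigned, an estimated count is the number of reads assigned to it, and TPM is that count per base of effective length, made relative to the whole library. The share of non-coding targets that passed, 7.98%, stands beside 21.2% of mRNA targets and 19.6% of all targets. The RNAs were thus chosen by their measured counts and TPM, so their levels are given as a description, with no test.

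Both libraries are total RNA of EVs from the medium of polyps of the strain Zurich, with no treatment of the animals that differed between them. For the collection, 250 polyps were kept per dish in 10 mL and starved for 4 days, and the vesicles were treated with proteinase K and then RNase A before their RNA was extracted. The library labelled ExoRNA5000Hy is called library A here, and ExoRNA11250Hy library B. The animals were pooled, and what the numbers in these names stand for is not stated in the labels. RNA of whole polyps was not analysed here, so a level describes what was found in the vesicles and not an enrichment over the animal. Fewer vesicles that carry an RNA and less of that RNA per vesicle cannot be told apart in such pooled material.

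Long non-coding RNAs (lncRNAs) are transcripts without a recognised protein-coding frame, by convention longer than 200 bases. In animals, members of this class act in the nucleus on chromatin and transcription or in the cytoplasm on mRNA stability and translation, and many have no known role. Vesicles of many animals carry RNA of this class beside mRNA, tRNA and fragments of ribosomal RNA. An automated genome annotation also lists as non-coding those transcripts of protein-coding genes whose reading frame it considers broken, so an XR accession, the RefSeq prefix of a predicted non-coding RNA, is a class of the annotation and not an assay of coding capacity. All 214 RNAs carry an XR accession. Curated non-coding entries with the prefix NR numbered 10 among the targets, and 1 of them had a count, of 1.

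Library A held 5943550 counts in all and library B 3943870, but 5 targets took nearly all of them, which left 176028 and 51977 counts on the rest. The effective length of a long target was shorter than its length by 95.01 bases in library A and by 97.22 bases in library B. Library B had counts on 3542 targets and library A on 12878, and this difference in reach bears on every comparison of the libraries below. Intervals given for shares are Wilson intervals at 95% and cover counting error only. Replicate error can be given as an SD over n = 2 libraries and no more.

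The most abundant of the non-coding RNAs were LOC105849895 and LOC105850674, and they took most reads of each library. LOC105849895 (XR_001142514.1, 1016 bases) had 2951260 counts in library A, against 2603160 in library B. This was 49.7% of all counts in the former (interval 49.6 to 49.7) and 66.0% in the latter (66.0 to 66.1), or 457911 and 642270 TPM (mean 550090 ± 130361, SD, n = 2). LOC105850674 (XR_001142779.1, 1093 bases) had 2291290 and 1189280 counts, which was 38.6% and 30.2% of the libraries. LOC105849895 was higher in library B on all counts, relative to the counts outside the 5 most abundant targets and on rescaled TPM. The direction of LOC105850674 depended on the scale, as it was lower on all counts, of which LOC105849895 took 66.0% in library B, and higher relative to the counts outside the 5 most abundant targets, at 1.76 times library A, with a log2 ratio of 0.10 on TPM rescaled without these 5. Whether they are ribosomal RNA was not tested, since their sequences were not used here, and the gene list of the study gives them no class.

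Directly before LOC105849895 in the order of the targets stood the mRNA LOC105849894 (XM_012710344.1, 234 bases), itself the fourth most abundant target. It had 65667 counts in library A against 9775 in library B. Its log2 ratio of library B over library A, on the scale of TPM + 0.1, was -2.03, while that of LOC105849895 was 0.49. On this scale the neighbours in the listing thus went in opposite directions between the libraries, as estimated. The counts of LOC105849894 are fractional, so the quantification split some of its reads with another target. Whether that target was LOC105849895 was not tested. Together the 214 RNAs held 88.5% of all counts of library A and 96.6% of library B. Outside the 5 most abundant targets they held 96.6% and 99.8% of the counts on non-coding targets. Such high shares follow largely from the choice of the RNAs by their counts and are no separate finding. LOC101236920 alone, described next, had 85.3% in library A and 98.8% in library B of the counts of the RNAs outside these 5 targets.

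LOC101236920 (XR_001140801.1, an lncRNA of 544 bases) was the only other abundant member. It had 14168 counts in library A against 15778 in library B, at 4509 and 8005 TPM (mean 6257 ± 2472, SD, n = 2), and was the higher one in library B although that library held fewer reads. Outside the 5 most abundant targets it held 8.05% of the counts in library A (7.92 to 8.18) and 30.4% in library B (30.0 to 30.8). Its counts are fractional, which means that the quantification split some of its reads with another target. The next target by level was the mRNA of LOC100208569 (described as ELMO domain-containing protein 2-like, a family that in humans stimulates GTP hydrolysis by Arf proteins), also fractional, with 11819 and 12586 counts and 1741 and 2948 TPM. Both were higher in library B in counts and in TPM, and whether they share their reads was not tested.

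Beside these 3 RNAs the other 211 were rare. They held 2449 counts in library A against 195 in library B, or 1.39% (1.34 to 1.45) and 0.374% (0.326 to 0.432) of the counts outside the 5 most abundant targets. Of the 212 RNAs outside these 5 targets, 19 had a mean between 10 and 100 TPM, 121 a mean between 1 and 10 TPM and 71 a mean under 1 TPM. The median of these 212 RNAs was 2.91 TPM in library A (quartiles 1.64 and 6.48) and 0 in library B. A mean of a few TPM in this set commonly stood for few reads, as 95 of the 214 RNAs had under 5 counts in their higher library, 119 had 5 or more, 56 had 10 or more, 22 had 30 or more and 4 had 100 or more.

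**Figure D1:**
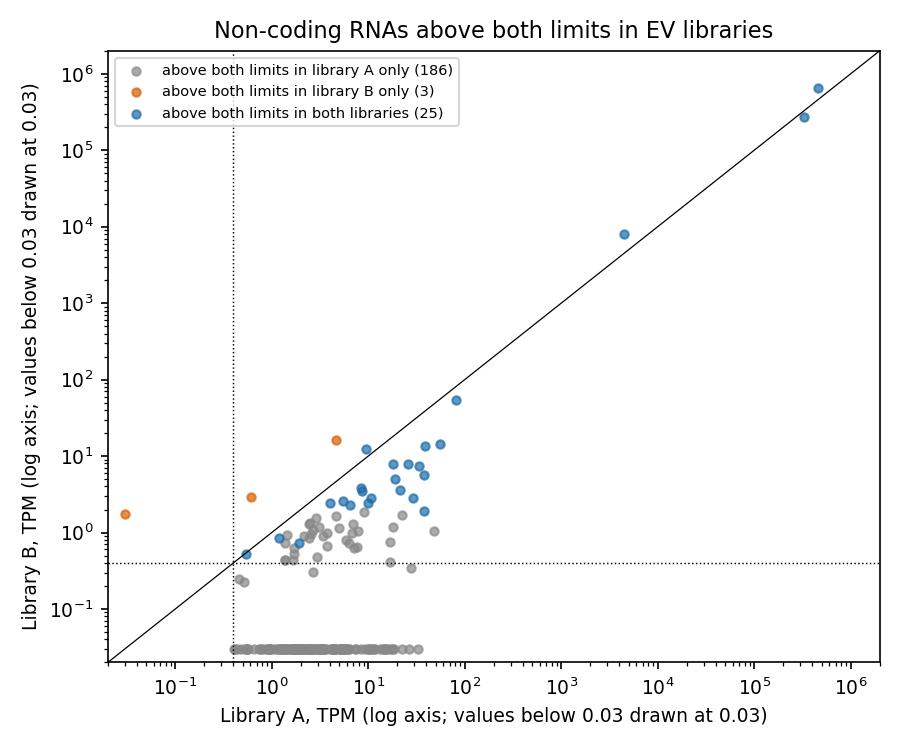
TPM of each of the 214 non-coding RNAs in library A (horizontal, log axis) and library B (vertical, log axis), with values close to 0 drawn at the lower edge, the diagonal as a line and 0.4 TPM as dotted lines. The 186 RNAs that passed only in library A lie below the diagonal and many of them at the lower edge, the 25 that passed in both form a band mostly below the diagonal, and LOC105849895, LOC105850674 and LOC101236920 lie far above the rest in both libraries.

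In library A 211 of the RNAs passed both limits (7.87% of non-coding targets, against 21% of mRNA and 19.4% of all targets), and in library B 28 did (1.04%, against 2.64% and 2.61%). Both libraries reached the limits for 25 RNAs (0.932% of non-coding targets, against 2.43% of mRNA and 2.41% of all targets). As a share of the targets that passed anywhere, those in both libraries made up 11.7% of the non-coding RNAs, 11.5% of the mRNAs and 12.3% of all targets. Only library A reached the limits for 186 RNAs and only library B for 3. No read was assigned in library B to 146 of the 214 RNAs (68.2%, against 57.4% of mRNA and 57.2% of all targets above the limits), and a further 40 had a count above 0 and below 3 there. Among these 40, XR_001142501.1 and XR_001141690.1 had practically none. At the median effective length of these RNAs, 3 counts correspond to 1.501 TPM in library A but 2.40 TPM in library B, so that an RNA with no read in library B was below detection at this depth and is not shown to be absent.

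Of the 25 RNAs found in both libraries, LOC105845872 (XR_001141213.1) followed the 3 abundant ones. This lncRNA of only 134 bases had 32 counts in library A against 12 in library B, or 80.7 and 53.4 TPM (mean 67.0 ± 19.3, SD, n = 2). Its short effective length turns few reads into a high TPM. LOC101237386 (XR_001140716.1, 335 bases) had more reads and a lower TPM, with 94 and 15 counts and 55.8 and 14.3 TPM. LOC101240314 (XR_181794.2, 434 bases) had 91 and 20 counts, or 38.3 and 13.5 TPM. It had the most reads in library B after the 3 abundant RNAs.

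The lncRNAs LOC101234785, LOC100214348 and LOC100214998, with LOC105848111 and LOC105849861 described further on, formed the next step, and the former 3 lay at 25.8 to 37.6 TPM in library A. LOC101234785 had 54 counts in library A against 5 in library B. LOC100214348 had 51 and 7 counts, and LOC100214998 had 32 and 6. Each was lower in library B, at 5.61, 7.35 and 7.85 TPM respectively. Their order in library A was reversed in library B, where they differed by at most 2 counts.

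A further group lay between 8.41 and 21.3 TPM in library A. LOC105845480 had 38 counts in library A against 4 in library B, LOC101239626 had 42 and 7, LOC101239327 had 45 and 7, and LOC105849216 had 22 and 6. LOC101236986 had 23.9 and 4 counts, LOC100207929 16 and 4, and LOC105848906 14.9 and 4.24. LOC105848904 (140 bases) stood apart, with 4 counts in library A against 3 in library B, or 9.41 and 12.5 TPM, and was thereby the only RNA of this group higher in library B. With so few reads its ratio of library B over library A, as a share of the counts outside the 5 most abundant targets, had an exact interval of 0.372 to 15.0, so that no difference was detectable at this depth.

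At the lower end, LOC100204040 had 8 and 3 counts (4.00 and 2.40 TPM). The longest of the RNAs found in both libraries, XR_001142675.1 with 1416 bases, had 11 and 5 counts and only 1.19 and 0.859 TPM. XR_001140868.1, with 1402 bases, had 5 and 3 counts and 0.547 and 0.521 TPM (mean 0.534 ± 0.0180, SD, n = 2), the closest pair of TPM values relative to their mean among the 25. Neither of these accessions is paired with a gene name in the sources used here.

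**Figure D2:**
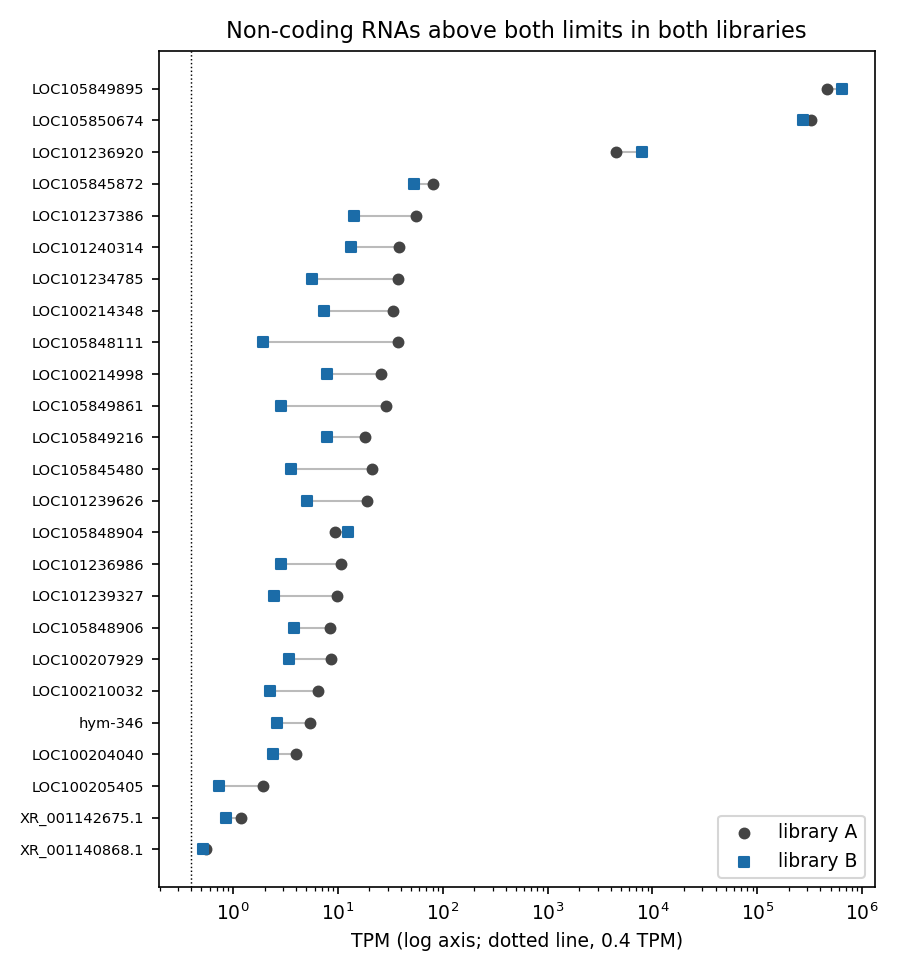
TPM (log axis) in library A (circles) and library B (squares) of the 25 non-coding RNAs that passed both limits in both libraries, ordered by their mean, with 0.4 TPM as a dotted line. The 3 RNAs at the top lie at 4509 TPM or more in each library, the other 22 at 80.7 TPM or less, and 22 of the 25 were lower in library B.

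On the deposited TPM, 6 of the 214 RNAs were higher in library B and all others were lower. A difference of at least 2-fold on TPM + 0.1 was reached downward by 196 RNAs (91.6%, against 91.7% of mRNA and 90.6% of all targets above the limits) and upward by 3 (1.4%, against 0.837% and 1.31%). The median log2 ratio was -4.14, beside -2.73 for mRNA targets and -2.74 for all targets above the limits. It rests on the many zeros of library B, as the median of the 60 RNAs with 10 or more counts in total was -2.78 and that of the 25 found in both was -1.30. No such medians were taken for mRNA targets. With no count in library B, as for 68.2% of the RNAs and 57.4% of the mRNA targets, a ratio is set by the TPM in library A and the pseudocount. Few reads make a higher TPM on a short target, and the median lengths were 380 and 1293 bases. The medians of -4.14 and -2.73 therefore do not show that non-coding RNAs fell more. TPM depends on the few abundant targets. Rescaling after leaving out the 5 most abundant ones shifted library B against library A by 0.38 on the log2 scale and left 8 RNAs higher in library B. The log2 ratios on TPM + 0.1 do not all move by this amount, since those of RNAs with no count in library B are set by the pseudocount and fell. On that scale 88.8% of the RNAs were at least 2-fold lower in library B (89% of mRNA and 87.9% of all targets) and 1.87% at least 2-fold higher (1.39% and 2.15%).

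As a share of the counts outside the 5 most abundant targets, 17 of 212 RNAs were lower in library B with an exact interval of the ratio below 1 (8.02%, against 18.4% of mRNA and 17.9% of all such targets). Only LOC101236920 and XR_001141891.1, both with fractional counts, were higher (0.943%, against 1.29% and 2.03%). This interval covers counting error only, not the error of splitting shared reads, and compares these libraries, not conditions. Since LOC101236920 and LOC100208569 took 15778 and 12586 of these 51977 counts of library B, every such ratio depends on them. With the 7 most abundant targets left out, a choice made after seeing the data, the ratios were 1.88 times as large, and 8 of 211 RNAs were lower (3.79%, against 6.68% of mRNA and 6.63% of all such targets) and 4 higher (1.9%, against 2.53% and 3.24%). LOC105845872 was among the latter, at a ratio of 2.38 (1.12 to 4.75), whereas it stood at 1.27 (0.596 to 2.53) with 5 targets left out. Whether such a call can be made depends on the counts of a target. Of those that passed in library A, 93 of 211 RNAs had 3 to under 5 counts there, against 1024 of 4615 mRNA targets. The shares of calls thus do not compare the classes at like counts.

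The 8 RNAs lower in library B under both denominators were LOC105846868, LOC105848828, LOC105848111, LOC100210903, LOC105844483, LOC105850409 and both listed transcripts of LOC105849862. All of them but LOC105848111 had fractional counts, so the quantification split some of their reads with another target. Their intervals rest on the rounded counts and do not cover the error of that split. The transcripts of LOC105849862 belong to 1 gene and are not separate findings. LOC105846868 (XR_001141548.1, 962 bases) had the most reads among them, 170 in library A against 1.31 in library B, or 28.0 and 0.343 TPM. Its share of counts in library B was 0.0199 times that in library A (0.000501 to 0.113), and 0.0374 times without the 7 targets. LOC105848828 (XR_001142160.1, 312 bases) had 73.6 counts in library A against 1 in library B, with a ratio of 0.0458 (0.00114 to 0.263). LOC100210903, LOC105844483 and LOC105850409 had 27.1, 31.6 and 30.5 counts in library A and none in library B, which put the upper bound of their ratios at 0.496, 0.414 and 0.428. The lncRNA LOC105848111 was at 0.108 (0.0219 to 0.326). LOC105846868 and LOC105844483 were chosen for mention after their values were seen.

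Other low RNAs had too few reads to keep such a call under both denominators. LOC105847920 (169 bases) had 11 counts and 18.7 TPM in library A, LOC105846855 had 13 counts and 15.3 TPM, and LOC105846955 had 22 counts and 11.01 TPM. None of these 3 lncRNAs had a count in library B. With 5 targets left out the upper bounds of their ratios were 1.35, 1.11 and 0.618. LOC105846955 was thus called lower with 5 targets left out, but not with 7. The log2 ratios of these 3 lncRNAs on TPM + 0.1, -7.55, -7.27 and -6.80, were with those of LOC100210903, LOC105850409 and XR_001142501.1 the 6 lowest among RNAs with 10 or more counts, and they depend on the pseudocount.

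The RNAs that passed only in library B were few and weak. LOC105845577 (141 bases) had 2 counts in library A against 4 in library B, at 4.64 and 16.5 TPM. LOC105844254 (330 bases) had 1 and 3 counts, at 0.606 and 2.92 TPM. XR_001141891.1 had none in library A against 5.94 in library B, at 1.77 TPM, and belongs to the gene of 40S ribosomal protein S9 described below. The intervals of the ratios of the former pair, 0.971 to 74.9 and 0.816 to 533, include 1 with the 5 targets left out and exclude it with 7. LOC105845577 and LOC105844254 too were chosen after their values were seen.

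For the 211 RNAs that passed through library A, the values in library B were not used to choose them and show how far a weak signal recurred. With 3 to under 5 counts in library A, 9 of 93 had any count in library B (9.68%, exact interval 4.52 to 17.6), against 18.3% of 1024 mRNA targets (15.9 to 20.8). From 5 to under 10 counts it was 17 of 62 (27.4%, 16.9 to 40.2), against 30.6% of mRNA targets. From 10 to under 30 counts it was 19 of 34 (55.9%, 37.9 to 72.8), against 52.7%. With 30 or more counts it was 20 of 22 (90.9%, 70.8 to 98.9), against 87.5%. Any estimated count above 0 was taken here, also one far below 1 read. Thus XR_001142501.1 in this class and XR_001141690.1 in that of 5 to under 10 counts were included, at only 5.86e-06 and 1.05e-06 counts in library B. The intervals of non-coding RNAs and mRNAs overlapped in every class, in the lowest only between 15.9% and 17.6%. They treat targets as independent, although some share reads, and their overlap is no test of a difference. The mRNA targets were longer, with a median of 888 bases in the lowest class against 348 for the non-coding RNAs, and the part of length was not tested.

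**Figure D3:**
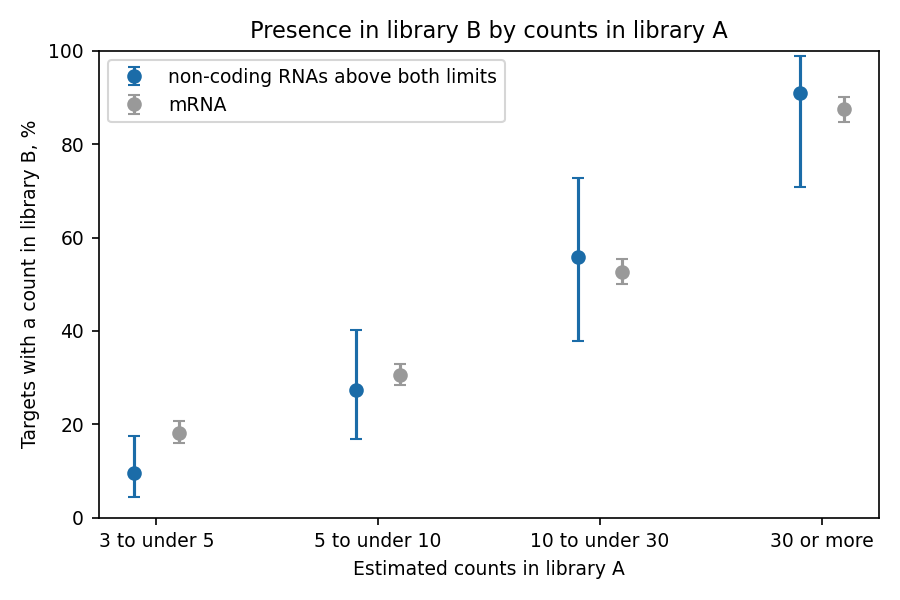
Percent of targets with a count in library B (vertical) by their estimated counts in library A (horizontal), for the non-coding RNAs and for mRNA targets above both limits in library A, with bars for exact 95% intervals over targets. Both series rise from under 20% at 3 to under 5 counts to about 90% at 30 or more, with the non-coding RNAs at 9.68% and the mRNAs at 18.3% in the lowest class.

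Between libraries, the 214 RNAs on the log2(TPM + 0.1) scale gave a Spearman rho of 0.365 with a Pearson r of 0.736, the latter lifted by the abundant RNAs. The mRNA targets above the limits had 0.423 and 0.672. In the 25 RNAs found in both libraries rho was 0.812. These are descriptions across targets of the same 2 libraries, and the choice of the RNAs by their counts is part of them.

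The RNAs were short. Their median length was 380 bases (quartiles 286 and 571, range 69 to 3174), against 306 bases for the other 2467 non-coding targets and 1293 bases for mRNA targets above the limits. Under 200 bases, below the convention for an lncRNA, lay 25 of the 214 (11.7%), against 23.7% of the other non-coding targets. Length enters both the number of reads that a transcript yields and its TPM, so this difference is no independent property of the RNAs. In library A 3 counts make 0.4 TPM at an effective length of 1072 bases, and 207 of the 214 RNAs were shorter than that, so that for nearly all the count limit and not the TPM limit decided.

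The extremes of length show what a TPM stands for here. The shortest RNA, XR_001141845.1 with 69 bases, reached 32.8 TPM in library A on 4 counts, and LOC105846825 with 84 bases 22.4 TPM on 4 counts. LOC105849715 with 92 bases reached 14.1 TPM on 3 counts. At the other end, XR_001141345.1 with 3174 bases had 9 counts and 0.418 TPM, XR_001140359.1 with 2651 bases had 14 counts and 0.783 TPM, and XR_001142846.1 with 1923 bases had 7 counts and 0.547 TPM. All 6 had no count in library B. The longest therefore had more reads than the shortest and a TPM lower by far.

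**Figure D4:**
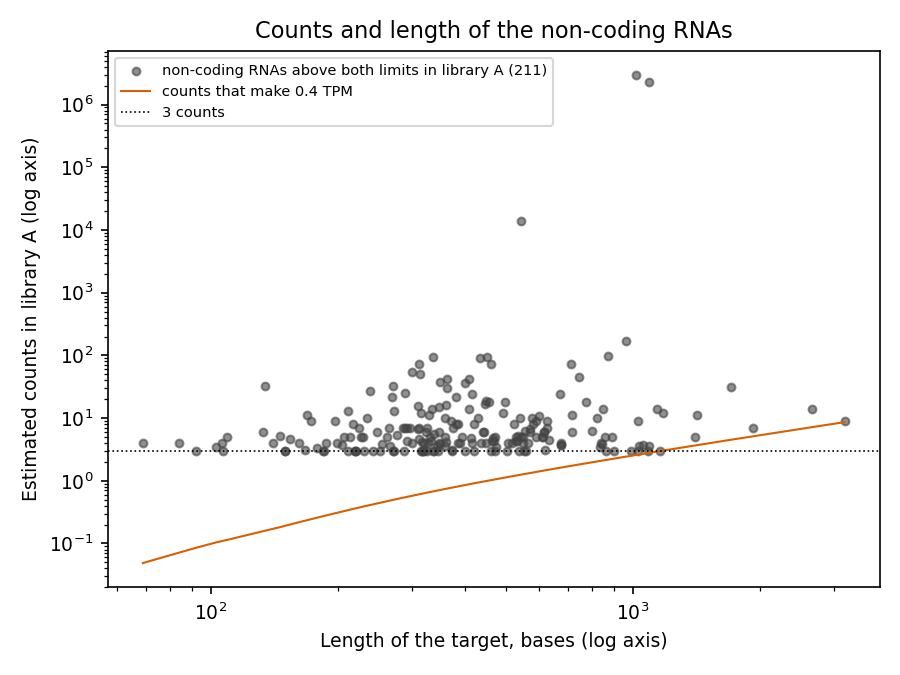
Estimated counts in library A (vertical, log axis) against length in bases (horizontal, log axis) of the 211 non-coding RNAs above both limits in that library, with 3 counts as a dotted line and the counts that make 0.4 TPM as an orange line. Many points rest just above the dotted line around the median length of 380 bases, and the orange line crosses it only near the few longest RNAs, at an effective length of 1072 bases.

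At the limits themselves, XR_001141129.1 (1162 bases) was just inside with 3 counts and 0.402 TPM in library A, XR_001140479.1 with 3 counts and 0.433 TPM, and XR_001141401.1 with 3 counts and 0.480 TPM. Just outside were XR_001141330.1 (1176 bases) with 3 counts and 0.397 TPM, XR_001142453.1 with 2.87 counts and 7.99 TPM, and XR_001140901.1 with 2.82 counts and 1.92 TPM. All 6 had no count in library B. Of the non-coding targets left out, 349 had 0.4 TPM or more on under 3 counts and 6 had 3 counts or more under 0.4 TPM.

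A gene name was found for 137 of the 214 RNAs, of 133 genes. The gene list of the study calls 126 of them lncRNA, 4 misc_RNA (a transcript that fits no other class) and 4 protein-coding, and gives 3 no class. The misc_RNA set holds the RNA with the best known name, *hym-346*. The gene encodes the precursor of the *Hydra* peptide Hym-346, also called pedibin, which is known to promote foot formation in this animal. Its transcript XR_001141450.1 (358 bases) had 10 counts in library A against 3 in library B, or 5.42 and 2.61 TPM (mean 4.01 ± 1.99, SD, n = 2), with whole counts in both. As a share of the counts outside the 5 most abundant targets, library B stood at 1.02 times library A (exact interval 0.180 to 3.95), so that no difference was detectable. Why the annotation lists this transcript as non-coding is not given in the sources used here.

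The other misc_RNA transcripts carry no description in the gene list. LOC100210032 (497 bases) passed in both libraries with 18 and 4 counts, or 6.40 and 2.27 TPM. LOC100214617 (400 bases) had 35.7 counts in library A against 1 in library B, at 16.7 and 0.748 TPM, and LOC100212687 (332 bases) had 4.27 and 1. The counts of both are fractional. Only *hym-346* and LOC100210032 of these 4 thus recurred above the limits.

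Some of the RNAs are non-coding variants of protein-coding genes, and their reads could be divided only by the quantification. The gene of 40S ribosomal protein S9 (LOC100212223), a part of the small ribosomal subunit, has the mRNA XM_002156817.3 with 154 counts in library A against 14.1 in library B, and the non-coding XR_001141891.1 with 0 and 5.94. The non-coding form thus took reads in library B only, as estimated. The gene of a glycine-rich RNA-binding protein 1-like protein (LOC100201184) had the non-coding form in library A instead. Its non-coding XR_001141690.1 had 9.86 of the reads in library A, beside 294 on the mRNA XM_012706765.1, and practically none in library B beside 30.

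The gene of serine/arginine-rich splicing factor 2 (LOC100200042), which acts in mRNA splicing, had 3.59 and 1 counts on the non-coding XR_001141752.1 and 13.3 and 0 on the mRNA XM_012707089.1. LOC101237274, listed as protein-coding, was matched through the single target XR_001141516.1 (491 bases), which had 12 counts in library A and none in library B. Its name, and with it its place among the 4 protein-coding ones, rests on a single TPM value above 0, 4.33 in library A. LOC100205405 (XR_001140388.1, 1141 bases), which the gene list leaves without a class, had 14.1 and 3.40 counts, or 1.93 and 0.738 TPM. The mRNA listed directly beside it is LOC100201764, described as arginase-1-like (arginase splits arginine into ornithine and urea), with 14.9 and 6.60 counts. The counts of both are fractional, and their sums are 29.0 in library A but 10.0 in library B.

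In a later annotation of *Hydra vulgaris*, that of the assembly HydraT2T_AEP, the gene name of 27 of the named RNAs was found, as lncRNA for 19 and as protein-coding for 8. Only names were compared, so a name not found there does not show that the gene is absent. Of these 8, LOC100202934, LOC101240520, LOC100214985 and LOC105846964 had been lncRNA in the study's gene list. LOC100202934 (XR_181676.2) had 17 and 2 counts, or 6.92 and 1.30 TPM, and LOC105846964 (XR_001141572.1) had 6 and 1 counts, or 3.38 and 0.903 TPM. LOC101240520 and LOC100214985 had 5 counts each in library A and none in library B. The remaining 4 are LOC100205405 and the genes of ribosomal protein S9, the glycine-rich protein and splicing factor 2.

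Fractional counts were found for 63 of the 214 RNAs, or 29.4%, against 15.7% of mRNA targets and 17.2% of all targets above the limits. Such counts arise where a read fits more than 1 target. LOC105849861 and LOC105849862 show the pattern, being 3 targets listed in a row. XR_001142499.1 (LOC105849861, 460 bases) had 73.6 counts in library A against 4.58 in library B, XR_001142501.1 (LOC105849862, 873 bases) had 96.1 and practically none, and XR_001142500.1 (LOC105849862, 713 bases) had 71.9 and 1.11. All 3 were lower in library B. How they divided their reads is the estimate of the quantification, and the single values are therefore uncertain. The same holds for pairs of transcripts of 1 gene, such as XR_001141700.1 and XR_001141702.1 of LOC105847344, with 5.66 and 5.34 counts in library A, and XR_001141755.1 and XR_001141756.1 of LOC105847492, with 6.73 and 4.27. In library B only the last of these 4 transcripts had a count, of 1.

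Position was not used to choose the RNAs. A target directly before or after in the listing was above both limits for 78 of the 214, or 36.4%, against 27.1% of the other non-coding targets, 33.2% of all targets under the limits, 42.9% of mRNA targets and 43.0% of all targets above the limits. The order of the listing is that of the deposited table, and whether neighbours in it adjoin in the genome was not tested. The 77 pairs comprised 67 with an mRNA, 9 with another of the RNAs and 1 with a tRNA. In 12 pairs both had fractional counts.

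Among the pairs with 10 or more counts in each target, 6 were with an mRNA, of which 4 had a count in library B. In 2 of these 4 the log2 ratios of library B over library A lay within 0.5 of each other. LOC105848828 stood beside the mRNA of LOC100208689, described as properdin-like (properdin is a plasma protein of the vertebrate complement system), which had 370 counts in library A against 4 in library B. The log2 ratios on TPM + 0.1 were -5.39 for the lncRNA and -5.61 for the mRNA. The other pair was LOC105848111 (XR_001141934.1, 450 bases), with 94 and 3 counts or 37.8 and 1.93 TPM, and the mucin-5AC-like gene LOC105848110, a relative of the gel-forming mucins of mammals. Both targets of each pair were lower in library B, as were most targets.

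The other pairs with a count in library B differed more, LOC100205405 and the arginase-1-like gene by 0.80 in log2 ratio and LOC105849895 and LOC105849894 by 2.52. In the remaining 2 pairs neither target had a count in library B, so that their ratios cannot be compared. LOC105847920 had 11 counts in library A and its neighbour XM_002166573.3 had 16, while LOC105850167 had 14.04 and its neighbour LOC100203042, an uncharacterized protein, had 33. Neighbouring lncRNAs were met as well, as LOC100199348 (XR_181677.2, 448 bases, 19 and 1 counts) and LOC100202934 (446 bases, 17 and 2 counts) followed each other at 7.69 and 6.92 TPM in library A. LOC105846964 was listed beside LOC101240323, described as neuroblast differentiation-associated protein AHNAK, which had 1846 and 74 counts against its own 6 and 1.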

How the data were processed

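Per the labels and the methods of the study, reads of EV RNA were trimmed with TrimGalore! and quantified with kallisto on the NCBI transcripts of assembly Hydra_RP_1.0; the kallisto version is not given in the sources used here. The authors deposited, per library, the estimated counts, which are not normalized, and the TPM values, which kallisto scales over all 25314 targets, with the length and effective length in bases. The deposited values were used as given, except where TPM was rescaled, or shares of counts computed, after leaving out the 5 or 7 most abundant targets; counts were rounded only for intervals. The members and lists were chosen with earlier results of these data known.

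Gene names came from the given part of the supplementary gene list (1264 genes), matched by its pair of TPM values: 125 RNAs as single targets and 12 as part of up to 6 adjacent targets summed; 5 were ambiguous and 72 unmatched. For an RNA with no count in library B the pair holds only 1 value above 0. For 75 single matches the order of accessions and gene numbers differed by at most 1 rank. The annotation of HydraT2T_AEP was used for classes only; no target accession of the 214 matched it. Transcript sequences were not used here.

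Named RNAs follow a rule: those above both limits in both libraries, the 10 highest means, the 6 highest and 6 lowest ratios with at least 10 counts in total, the 3 longest and shortest, those not called lncRNA, those at the limits and LOC105848111; exceptions are marked, and LOC105850167, LOC100199348, LOC105847344, LOC105847492, LOC105849862 as its XR_001142500.1 and the mRNAs named beside them were likewise chosen after their values were seen. A count over 0.01 from a whole number is fractional. With 1 condition no test between groups was made. Intervals are Wilson or exact (Clopper-Pearson) at 95%, and the floor is 3 counts. The calculation of the ratios was tried on simulated data (Python 3.11.15, scipy 1.17.1, pandas 2.3.3). The outcome is not given here, so that run is no evidence for the reported ratios, most of which rest on few counts. Median counts of the RNAs were 5 in library A and 0 in library B. Alternatives were thresholds of 0.2 and 1 TPM, other count minima, rescaled TPM, a pseudocount of 1 TPM instead of 0.1, whole counts only, and each library left out.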

Additional observations from a re-analysis of the deposited data

How the results depend on the processing

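The number of non-coding RNAs, 214, moved to 563 without a count minimum, to 56 with 10 or more counts and to 25 where both libraries had to pass; leaving out one library gave 28 to 211, the lower value without library A. The 25 found in both libraries moved to 76 without a count minimum and to 6 with 10 or more counts. The share of the counts outside the 5 most abundant targets held by the 212 RNAs outside these 5 was 20.1% on average over the libraries. It moved to 0.587% with whole counts only, which removes LOC101236920, and to 1.23% with the 7 most abundant targets left out. On all counts, where all 214 RNAs enter, the share moved to 92.5%. With those 7 left out, the RNAs with a lower share in library B moved from 17 to 8 and those with a higher share from 2 to 4. The median log2 ratio, -4.14, was -1.58 with a pseudocount of 1 TPM, -3.05 with 10 or more counts, -9.01 with rescaled TPM, whose zeros weigh more, and -4.07 with whole counts only. Spearman rho, 0.365, was 0.585 with 10 or more counts, 0.376 with rescaled TPM and 0.416 with whole counts only. The median length, 380 bases, was 349 at 1 TPM, 326 without a count minimum and 422.5 with 10 or more counts, and 380 to 394.5 with one library left out. With one library left out, a listed neighbour above the limits was found for 14.3% to 36.5% and fractional counts for 17.9% to 29.4%. Ratios and correlations have no value with one library left out. No paired analysis was possible because there is 1 group.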
